A study of Mus musculus with 12 samples.

Results

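Resting B cells keep a transcriptional programme that is set aside when they become antibody-secreting plasma cells, and the 9 genes described here regulate or mark that choice. They are Pax5, Ebf1, Bach2, Bcl6, Spib, Irf4, Prdm1, Xbp1 and Sdc1. Members were found by symbol, as every non-control spot whose gene name equalled one of them. Each had 1 probe, so the 9 genes of 50090 gene names on the array were read from 9 of 61307 probes. All 9 probes were well above background on all 12 arrays, none was saturated on any array, and all 9 passed the filter on dim probes.

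The arrays were one-colour (Cy3) Agilent custom mouse arrays of RNA from resting B (RB) cells. The labels give spleens of female BALB/c mice aged 6 weeks and 4 h of culture, whereas the methods give mice of either sex. Cells had been purified by negative selection that removes CD43+ cells. There were 6 groups of 2 arrays each. Unstimulated cells received no ligand. Pam2CSK4 (Pam2csk4 in the labels) is a synthetic lipopeptide that ligates TLR-2. Anti-CD86 is an antibody to the costimulatory protein CD86, which the methods describe as biotinylated and cross-linked with streptavidin. TLR2.CD86 is the group given anti-CD86 and Pam2CSK4 together. Anti-CD40 is an antibody to CD40, the receptor through which helper T cells drive B cells, and the last group received anti-CD40 with Pam2CSK4. The methods name an isotype control, but no array of the 6 groups is labelled as one. Anti-CD86 was always given with its cross-linker, so the antibody and the cross-linker cannot be told apart. The study calls its array data representative of biological replicates. The labels do not say that the arrays of a group came from separate cultures or mice, so p-values measure the spread between these arrays, which may be technical.

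The members form a network. PAX5 and EBF1 hold B cell identity in place, BACH2 represses Prdm1, BCL6 directs the germinal centre programme, and SPIB is an ETS factor of B cells that works with PU.1. IRF4 rises on activation and, at high levels, favours the plasma cell programme. BLIMP-1, the product of Prdm1, ends the B cell programme, XBP1 builds the secretory machinery, and syndecan-1 (CD138), the product of Sdc1, is the surface protein by which plasma cells are recognised.

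A level is given here as log2 of the processed signal minus the 75th percentile of that array, so a level of 0 lies at the 75th percentile. Levels of different probes were not compared with each other, except to judge saturation. Differences between groups were tested with limma over 31599 probes, with Benjamini-Hochberg adjustment, and a gene was called at an adjusted p under 0.05. The arrays lay on 2 slides. Slide 1 held 8 arrays, which were both unstimulated arrays, both arrays of anti-CD40 with Pam2CSK4, and replicate 1 of the other 4 groups. Slide 2 held the other 4 arrays. The slides were scanned in separate runs, so slide and scan run cannot be told apart. With 2 arrays a group, precision is limited. Of the 9 members, 7 differed between the slides when slide was a term of the fit, as did 18074 of the 31599 probes. Pax5 (-0.44), Bcl6 (-0.35), Bach2 (-0.31), Spib (-0.35), Xbp1 (-0.30) and Sdc1 (-0.38) were lower on slide 2 and Irf4 was higher (0.11). The median slide difference over all tested probes was -0.13, and 12426 of those 18074 probes were lower on slide 2. Values with slide as a block are therefore printed beside the results whose call they change.

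The B cell label was checked against markers. All 6 B cell markers, among them Cd79b and Ms4a1, were well above background on all 12 arrays. So were 6 of 7 T cell markers, 7 of 7 myeloid markers, 3 of 4 NK cell markers and 4 of 4 plasma cell markers, of which Sdc1 and Prdm1 are members. Of the red cell markers, 2 of 3 were. On the linear scale relative to the 75th percentile, the summed T cell markers were 33.6 to 34.3 on the unstimulated arrays and 22.3 to 31.7 on the stimulated arrays. The summed NK cell markers were 14.7 to 14.9 on the unstimulated arrays and 8.08 to 12.6 on the stimulated arrays. The other sums did not fall on every stimulated array. Summed myeloid markers were 322 to 351 on the unstimulated arrays, 334 to 382 with anti-CD40 with Pam2CSK4 and 271 to 323 with the other stimulations. Summed red cell markers were 83.4 to 83.7, 101 to 102 and 57.4 to 104 in the same order. Summed B cell markers, which include Cd79b, saturated on all 12 arrays, were 333 to 362 on the unstimulated arrays. The myeloid sum includes S100a9, whose level ran from 7.39 to 8.09, close to the range of the saturated Cd79b (7.39 to 8.10). S100a9 may therefore lie at the same ceiling, and the myeloid sums may not show whether myeloid RNA changed. In these bulk samples, fewer cells of a type and less RNA per cell cannot be told apart.

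Irf4 was the member that moved most. It rose with 4 of the 5 stimulations, about 2-fold with Pam2CSK4 and with TLR2.CD86 and about 4- to 5-fold with the 2 anti-CD40 groups, and it was not called with anti-CD86 alone. Bach2 and Sdc1 fell with both anti-CD40 groups, and Spib rose with anti-CD40 with Pam2CSK4. Prdm1, Xbp1, Pax5, Ebf1 and Bcl6 were not called in any comparison with unstimulated cells in the fit without the slide. The plot of each array's signal shows this member by member.

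**Figure D1:**
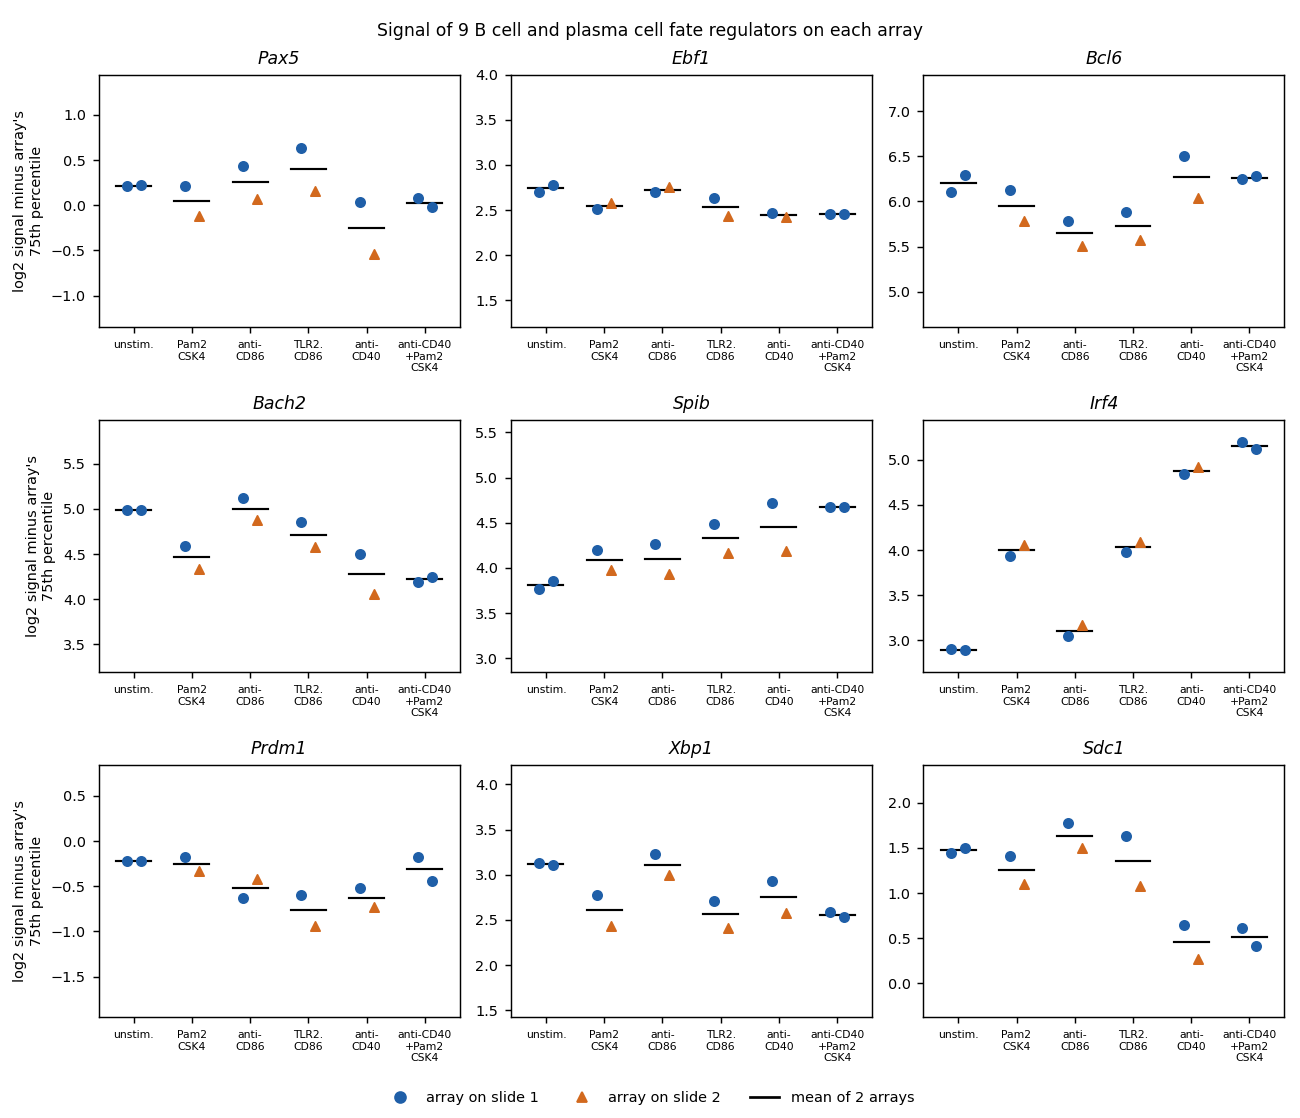
Log2 signal of each member relative to the array's 75th percentile (y axis, every panel spanning the same range) by group (x axis), with 1 point per array, blue circles for slide 1, orange triangles for slide 2 and a black line at the mean of 2 arrays. Irf4 runs from 2.89 to 5.19 with little distance between arrays of a group, and in Pax5, Bcl6, Bach2, Spib, Xbp1 and Sdc1 the slide 2 array lies below the slide 1 array of its group.

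The first comparisons ask what each stimulus, alone or combined, did to Irf4, the interferon regulatory factor that links activation to plasma cell differentiation. Unstimulated arrays read 2.90 and 2.89. The Pam2CSK4 arrays read 3.93 and 4.06, and the TLR2.CD86 arrays read 3.98 and 4.09. These 4 arrays all lay above the unstimulated arrays and among themselves could not be separated by group. The anti-CD86 arrays read 3.05 and 3.17, just above the unstimulated pair. With anti-CD40 the arrays read 4.84 and 4.92, and with anti-CD40 and Pam2CSK4 they read 5.19 and 5.12, the highest of the series. By group mean the order from low to high was therefore unstimulated, anti-CD86, Pam2CSK4, TLR2.CD86, anti-CD40 and anti-CD40 with Pam2CSK4, and the only neighbours in it whose arrays overlapped were Pam2CSK4 and TLR2.CD86.

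Against unstimulated cells, Irf4 was 2.14-fold higher with Pam2CSK4 (log2 1.10, SE 0.11, limma adjusted p = 0.0148). It was 2.20-fold higher with TLR2.CD86 (log2 1.13, adjusted p = 0.00551) and 3.95-fold higher with anti-CD40 (log2 1.98, adjusted p = 0.00018). With anti-CD40 and Pam2CSK4 it was 4.78-fold higher (log2 2.26, adjusted p = 1.79e-05). The anti-CD86 difference of 0.21 was not called (adjusted p = 0.288). Irf4 was the sole member called with Pam2CSK4 and with TLR2.CD86, where 0.136% and 10.6% of all tested probes were called. With slide as a block the 4 differences were 1.04, 1.08, 1.93 and 2.26, and all 4 stayed called. The block brought the members called to 4 with Pam2CSK4 and 6 with TLR2.CD86, beside 10.8% and 34.9% of probes. The Pam2CSK4 and TLR2.CD86 calls were lost without either unstimulated array. The Pam2CSK4 difference was then 1.10 or 1.09 (adjusted p = 0.154 and 0.169), and the TLR2.CD86 difference 1.14 or 1.13 (adjusted p = 0.0594 and 0.0746). The Pam2CSK4 call was also lost without the second Pam2CSK4 array (adjusted p = 0.0995), without either array of anti-CD40 with Pam2CSK4, which changes only the spread (adjusted p = 0.0640 each), and on slide 1 alone (difference 1.03, adjusted p = 0.124).

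The choice of scaling bore on these calls. The median log2 signal of an array was 4.12 to 4.56 on slide 1 and 4.95 to 5.68 on slide 2. It was highest on the second anti-CD40 array, where 60.6% of spots were well above background, beside 47.4% on the first. How far slide 2 or that array sets the effect of scaling was not tested. With arrays centred on the median instead of the 75th percentile, the median difference from unstimulated cells over all tested probes went from -0.07 to -0.26 for Pam2CSK4, from -0.05 to -0.19 for anti-CD86, from -0.03 to -0.32 for TLR2.CD86, from -0.01 to -0.58 for anti-CD40 and from 0.01 to -0.10 for anti-CD40 with Pam2CSK4. Relative to the median of all tested probes, which makes both scalings equal, Irf4 was higher by 1.17 with Pam2CSK4, 1.16 with TLR2.CD86, 2.00 with anti-CD40 and 2.25 with anti-CD40 with Pam2CSK4. Under median scaling itself the last of these was the only member difference that stayed called (2.15, adjusted p = 0.00327). Keeping dim probes in the test left Irf4 as the only member called, in the 2 anti-CD40 groups against unstimulated cells and in anti-CD40 with Pam2CSK4 against Pam2CSK4 and against TLR2.CD86.

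Adding a second signal changed Irf4 unevenly. TLR2.CD86 exceeded anti-CD86 alone by 0.92 (1.90-fold, adjusted p = 0.0197), and Irf4 was the 1 member called in that comparison, in which 0.225% of probes were called. The difference was 0.93 on slide 1 and 0.92 on slide 2. That call was lost on slide 1 alone (adjusted p = 0.149), with quantile normalization (adjusted p = 0.0525) and without any single one of the 4 arrays compared (adjusted p between 0.0732 and 0.17). It was also lost without either unstimulated array (adjusted p = 0.0767 each) and without either array of anti-CD40 with Pam2CSK4 (adjusted p = 0.0665 each). Against Pam2CSK4 alone TLR2.CD86 differed by 0.04 with an SE of 0.11 (adjusted p = 1), and no member was called. In that comparison 0.0633% of probes were, and 1 member, Prdm1, had an unadjusted p under 0.05 (difference -0.51, adjusted p = 0.330). Blocked by slide, Pax5 was called there (0.35, adjusted p = 0.0347), 1 member beside 10.7% of probes, and 3 members were called between TLR2.CD86 and anti-CD86, beside 7.54% of probes. They were Irf4, Xbp1 and Bach2 (-0.29, adjusted p = 0.0472).

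Anti-CD40 with Pam2CSK4 exceeded Pam2CSK4 alone by 1.16 (2.23-fold, adjusted p = 0.00102), and Irf4 was the 1 member called among 9.91% of probes. It exceeded TLR2.CD86 by 1.12 (2.18-fold, adjusted p = 0.00105). Irf4 and Sdc1 were the 2 members called there, against 12.2% of probes. Under the slide block 5 members were called in each of these comparisons, beside 31.4% and 34.5% of probes. Those called against Pam2CSK4, other than Irf4, were Spib (0.41, adjusted p = 0.0146), Bach2 (-0.40, adjusted p = 0.00622), Xbp1 (-0.20, adjusted p = 0.0381) and Sdc1 (-0.93, adjusted p = 0.0011). Against TLR2.CD86 the block added Bcl6 (0.37, adjusted p = 0.0172), Bach2 (-0.65, adjusted p = 0.000833) and Pax5. Over anti-CD40 alone the excess was 0.28 (SE 0.11, adjusted p = 0.234), although neither array overlapped. With slide as a block that excess was 0.33 and was called (adjusted p = 0.0114). No member was called by limma in that comparison without the block, beside 2.9% of probes, and 1, Irf4, had an unadjusted p under 0.05. With the block 2 members were, Irf4 higher and Xbp1 lower (-0.35, adjusted p = 0.0120), beside 15% of probes.

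Over the 12 arrays, the 3 genes whose signal ran most like Irf4, among 13712 genes well above background and unsaturated on all arrays, were Bcl2l1 (Pearson r = 0.994), Il2ra (r = 0.993) and Sema7a (r = 0.992). The arrays share groups and slides, so these r values are a description. Bcl2l1 encodes the survival protein BCL-XL, and its mean level was -0.42 in unstimulated cells, 1.80 with Pam2CSK4, -0.24 with anti-CD86, 1.87 with TLR2.CD86, 3.44 with anti-CD40 and 4.31 with anti-CD40 with Pam2CSK4. Il2ra, which encodes CD25, the alpha chain of the receptor for IL-2, went from -1.83 to 2.39 between the first and last of these groups. Sema7a, a membrane-anchored semaphorin, went from 4.03 to 6.82.

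**Figure D2:**
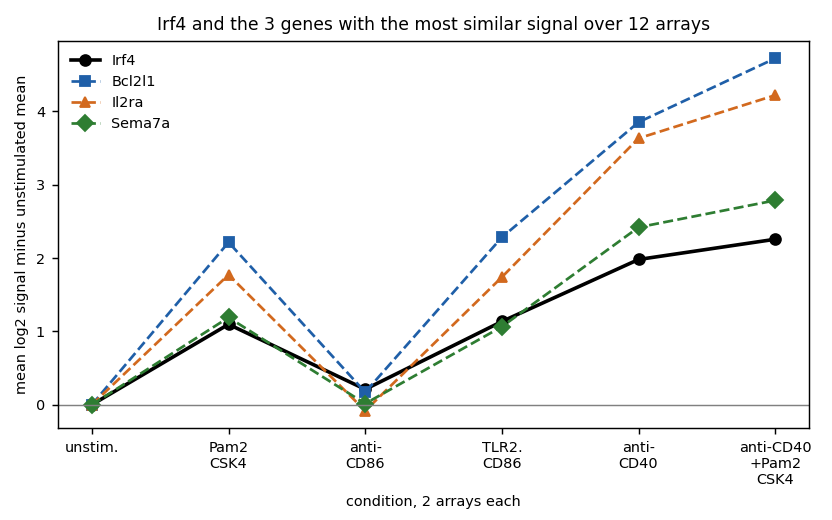
Mean log2 signal of 2 arrays minus the unstimulated mean (y axis) by group (x axis) for Irf4 and the 3 genes most correlated with it over 12 arrays; lines join groups only to guide the eye. All 4 genes sit near 0 with anti-CD86 and are highest with anti-CD40 with Pam2CSK4, and Bcl2l1 spans more than Irf4, whose largest difference is 2.26.

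Motifs were searched on both strands in the 250 bases before each start in the RefSeq promoter table (GRCm38.p6), which held 11 windows for the 9 members. The motifs were the NF-kB consensus, the composite ETS-IRF element bound by IRF4 with PU.1 or SPIB (GGAA and GAAA with any 2 bases between), and TGANTCA, the AP-1 type site that BACH2 can also bind. Irf4 is printed as the member that moved most, Spib and Sdc1 as called members whose windows match the NF-kB consensus, and Prdm1 as the target of BACH2. Capitals mark matches to the NF-kB consensus, and in Prdm1 to TGANTCA. The Irf4 window is chr13:30748983-30749232, plus strand, the Spib window chr7:44532072-44532321, minus strand, the Sdc1 window chr12:8771146-8771395, plus strand and the Prdm1 window chr10:44458749-44458998, minus strand.
Irf4: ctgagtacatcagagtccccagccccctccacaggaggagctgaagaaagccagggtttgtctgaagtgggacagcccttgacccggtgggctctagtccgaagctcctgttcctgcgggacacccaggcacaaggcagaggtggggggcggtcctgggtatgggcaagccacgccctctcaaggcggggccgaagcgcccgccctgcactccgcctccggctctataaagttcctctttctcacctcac
Spib: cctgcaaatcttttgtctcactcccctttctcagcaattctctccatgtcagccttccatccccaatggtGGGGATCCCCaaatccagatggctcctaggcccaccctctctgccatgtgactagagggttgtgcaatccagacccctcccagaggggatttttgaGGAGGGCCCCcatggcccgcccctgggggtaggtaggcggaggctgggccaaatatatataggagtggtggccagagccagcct
Sdc1: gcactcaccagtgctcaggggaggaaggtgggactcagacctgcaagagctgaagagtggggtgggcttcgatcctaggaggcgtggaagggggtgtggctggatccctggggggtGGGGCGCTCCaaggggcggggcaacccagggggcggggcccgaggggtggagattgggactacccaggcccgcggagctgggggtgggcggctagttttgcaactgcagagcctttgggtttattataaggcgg
Prdm1: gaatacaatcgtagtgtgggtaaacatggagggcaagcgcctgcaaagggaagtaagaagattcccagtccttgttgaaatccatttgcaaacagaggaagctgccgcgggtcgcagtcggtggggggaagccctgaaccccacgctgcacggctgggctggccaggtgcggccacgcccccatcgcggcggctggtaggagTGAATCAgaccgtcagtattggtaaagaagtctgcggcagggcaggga
The NF-kB consensus matched 2 times in Spib, 1 time in Sdc1 and in no window of the other members, and 7.25% of the 32851 windows in the table held it. The ETS-IRF element was found in a Bach2 and a Bcl6 window and in 2.30% of all windows. TGANTCA was found in the Prdm1 window and in 6.75% of all windows. Spib rose and Sdc1 fell in the groups described below, and both windows hold the consensus. The Irf4 window holds none of the 3 motifs. A match describes letters and is not a bound site.

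Prdm1, which encodes the repressor that drives plasma cell differentiation, did not pass the test in any comparison in the fit without the slide. Unstimulated arrays read -0.22 and -0.22, Pam2CSK4 -0.18 and -0.33, anti-CD86 -0.63 and -0.42, TLR2.CD86 -0.60 and -0.93, anti-CD40 -0.52 and -0.73, and anti-CD40 with Pam2CSK4 -0.17 and -0.44. The arrays of anti-CD86, TLR2.CD86 and anti-CD40 lay below the unstimulated pair, while those of the groups with Pam2CSK4 alone or with anti-CD40 lay on both sides of it. The largest difference was with TLR2.CD86 (-0.54, SE 0.16, adjusted p = 0.0684), and with slide as a block it was called (-0.48, adjusted p = 0.0468). Irf4 was above its unstimulated level in the same arrays.

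Bach2, the repressor that holds back Prdm1, fell with anti-CD40. The transcript record given for its 1 probe was not among the RefSeq transcripts of Bach2 used here, unlike those of the other members. Unstimulated arrays both read 4.99. The Pam2CSK4 arrays read 4.59 and 4.33, anti-CD86 5.13 and 4.88, and TLR2.CD86 4.85 and 4.57. With anti-CD40 the arrays read 4.50 and 4.05, and with anti-CD40 and Pam2CSK4 4.19 and 4.25. The anti-CD86 arrays lay on both sides of the unstimulated arrays, and all others lay below them. Bach2 was 1.64-fold lower with anti-CD40 (log2 -0.71, SE 0.18, limma adjusted p = 0.0358) and 1.70-fold lower with anti-CD40 with Pam2CSK4 (log2 -0.77, adjusted p = 0.0236). With slide as a block these were -0.56 and -0.77, both called, and the Pam2CSK4 difference of -0.52 (adjusted p = 0.252) became -0.37 and was called (adjusted p = 0.0251). Leaving out either unstimulated array ended both calls (adjusted p from 0.119 to 0.163). So did leaving out the second anti-CD40 array for the former (-0.49, adjusted p = 0.167), and either array of anti-CD40 with Pam2CSK4 for the latter (adjusted p = 0.123 and 0.106) and for the former (adjusted p = 0.0648 each). The former also missed the threshold without moderation of the variance (adjusted p = 0.0515). T cells also express Bach2, and the summed T cell markers given above were lower on every stimulated array. Their part in the result was not tested.

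With anti-CD40, 3 of the 9 members were called, Irf4 higher and Bach2 and Sdc1 lower, beside 16.7% of all tested probes. With anti-CD40 with Pam2CSK4, 4 of 9 were called, Irf4 and Spib higher and Bach2 and Sdc1 lower, beside 18.2% of probes. Without 1 unstimulated array, whichever it was, Irf4 alone stayed called in each, and without 1 array of anti-CD40 with Pam2CSK4 the latter count was also 1. The median difference of the 9 members was -0.37 and -0.19 in these comparisons, beside -0.01 and 0.01 over all tested probes. Blocking by slide gave 7 and 6 members called, beside 37.1% and 47.4% of probes. The genes with the signal most like Bach2 were Thap11 (r = 0.979), Slc38a1 (r = 0.978) and Csnk1g3 (r = 0.977).

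**Figure D3:**
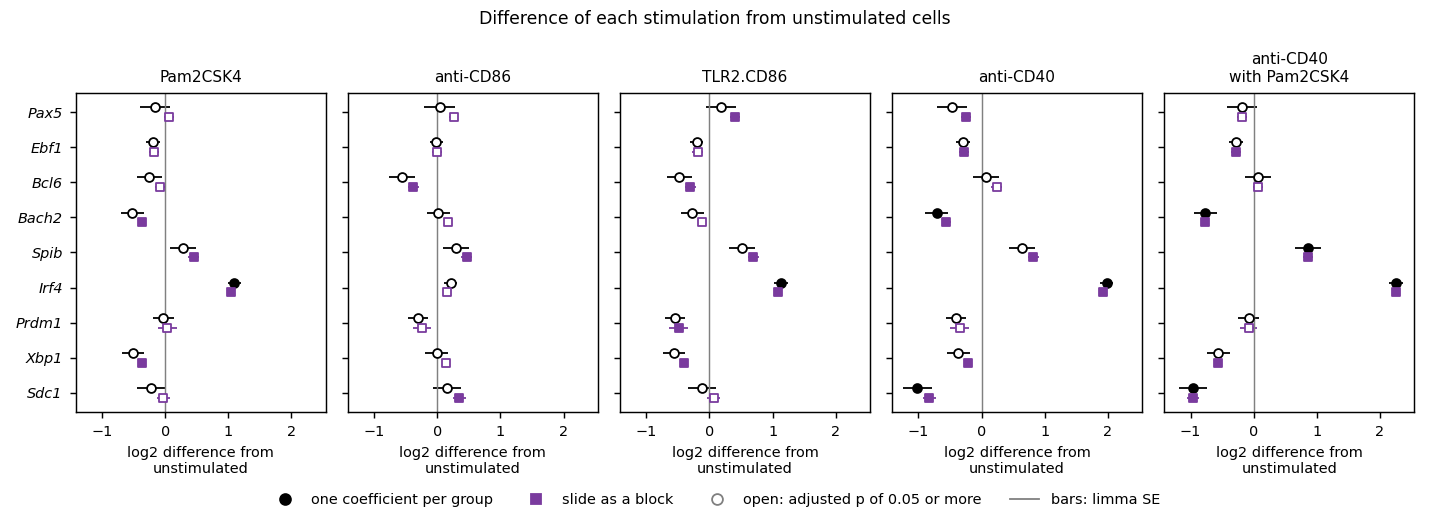
Log2 difference from unstimulated cells (x axis) for each member (y axis) in the 5 stimulated groups, from the fit with 1 coefficient per group (black circles) and with slide as a block (purple squares); bars are limma standard errors and filled symbols have an adjusted p under 0.05. Irf4 stands farthest to the right in every panel but that of anti-CD86, Sdc1 lies near -1 with both anti-CD40 groups, and more symbols are filled with the block.

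Spib, an ETS factor of the B lineage that opposes plasma cell differentiation, went up. Unstimulated arrays read 3.76 and 3.86, Pam2CSK4 4.20 and 3.98, anti-CD86 4.26 and 3.94, and TLR2.CD86 4.49 and 4.17. The anti-CD40 arrays read 4.72 and 4.19 and those of anti-CD40 with Pam2CSK4 both read 4.67. Every stimulated array lay above both unstimulated arrays. Spib passed the test with anti-CD40 with Pam2CSK4 (1.82-fold, log2 0.86, SE 0.21, limma adjusted p = 0.024) and not with anti-CD40 alone (0.65, adjusted p = 0.0675), and the difference between these groups was 0.22 and not called. Spib was called in all 5 comparisons with unstimulated cells when slide was a block. The differences were then 0.46 with Pam2CSK4, 0.47 with anti-CD86, 0.69 with TLR2.CD86, 0.82 with anti-CD40 and 0.86 with anti-CD40 with Pam2CSK4. The call without the block was lost without any single one of the 4 arrays compared (adjusted p = 0.105 at the lowest and 0.135 at the highest). The most similar signals over the arrays were those of Nob1 (r = 0.982), Atxn7l3 (r = 0.977) and Nol9 (r = 0.975).

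Pax5 and Ebf1, which commit cells to the B lineage, were not called in any comparison in the fit without the slide. Pax5 read 0.21 and 0.22 in unstimulated cells, 0.22 and -0.12 with Pam2CSK4, 0.43 and 0.07 with anti-CD86, 0.64 and 0.16 with TLR2.CD86, 0.04 and -0.54 with anti-CD40, and 0.08 and -0.02 with anti-CD40 with Pam2CSK4. In each group split over the slides the array on slide 1 was the higher. When slide was a block, Pax5 was higher with TLR2.CD86 (0.40, adjusted p = 0.00936) and lower with anti-CD40 (-0.25, adjusted p = 0.0474), and anti-CD40 with Pam2CSK4 lay below TLR2.CD86 by -0.59 (adjusted p = 0.00203).

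Ebf1 was among the steadiest, from 2.43 to 2.77 over all 12 arrays. It read 2.71 and 2.77 in unstimulated cells, 2.51 and 2.58 with Pam2CSK4, 2.70 and 2.75 with anti-CD86, 2.64 and 2.44 with TLR2.CD86, 2.47 and 2.43 with anti-CD40, and 2.46 and 2.45 with anti-CD40 with Pam2CSK4. Apart from anti-CD86, every stimulated array lay below the unstimulated pair. The differences with anti-CD40 (-0.29, adjusted p = 0.0998) and with anti-CD40 with Pam2CSK4 (-0.29, adjusted p = 0.108) were called with slide as a block (-0.28, adjusted p = 0.0368, and -0.29, adjusted p = 0.0216).

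Bcl6, the germinal centre repressor, read 6.11 and 6.29 in unstimulated cells, 6.12 and 5.78 with Pam2CSK4, 5.78 and 5.51 with anti-CD86, and 5.88 and 5.57 with TLR2.CD86. The anti-CD40 arrays read 6.50 and 6.04 and those of anti-CD40 with Pam2CSK4 6.25 and 6.28. The groups given anti-CD86 lay below the unstimulated arrays, and the anti-CD40 groups overlapped with them. No Bcl6 difference was called. That with anti-CD86 was -0.55 (SE 0.20, adjusted p = 0.159) and that with TLR2.CD86 -0.47 (adjusted p = 0.161). Both were called under the slide block, at -0.38 (adjusted p = 0.0184) and -0.30 (adjusted p = 0.0328). With anti-CD86 none of the 9 members was called by limma, 1 had an unadjusted p under 0.05, and 2.14% of all tested probes were called; with slide as a block 3 members were, beside 28.3% of probes.

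Xbp1 encodes the factor that expands the endoplasmic reticulum of secretory cells. Unstimulated arrays read 3.13 and 3.11, and the Pam2CSK4 arrays 2.78 and 2.43. The anti-CD86 arrays read 3.22 and 2.99, TLR2.CD86 2.70 and 2.41, anti-CD40 2.93 and 2.57, and anti-CD40 with Pam2CSK4 2.58 and 2.53. All stimulated arrays other than those of anti-CD86 lay below the unstimulated pair. No difference passed the test, with -0.51 for Pam2CSK4 (adjusted p = 0.252), -0.56 for TLR2.CD86 (adjusted p = 0.0805) and -0.56 for anti-CD40 with Pam2CSK4 (adjusted p = 0.0663). Under the slide block they were called at -0.36 (adjusted p = 0.0181), -0.41 (adjusted p = 0.00316) and -0.56 (adjusted p = 0.000363), and so was anti-CD40 (-0.21, adjusted p = 0.0259). With the block, too, TLR2.CD86 lay below anti-CD86 by -0.55 (adjusted p = 0.0062), the same in size as without it (adjusted p = 0.419). The probe does not separate spliced from unspliced Xbp1 mRNA as far as the files say.

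Sdc1, the gene of the plasma cell marker CD138, was the member that fell most. Unstimulated arrays read 1.45 and 1.50, Pam2CSK4 1.41 and 1.10, anti-CD86 1.77 and 1.50, and TLR2.CD86 1.63 and 1.07. The anti-CD40 arrays read 0.64 and 0.27 and those of anti-CD40 with Pam2CSK4 0.62 and 0.41. The 4 arrays with anti-CD40 were the lowest of the 12. Sdc1 was 2.02-fold lower with anti-CD40 (log2 -1.02, SE 0.22, limma adjusted p = 0.0224) and 1.94-fold lower with anti-CD40 with Pam2CSK4 (log2 -0.96, adjusted p = 0.0217). Against TLR2.CD86, anti-CD40 with Pam2CSK4 was 1.78-fold lower (log2 -0.84, adjusted p = 0.0474). Blocked by slide these were -0.83, -0.96 and -1.03, all called, and Sdc1 was called higher with anti-CD86 (0.35, adjusted p = 0.0424).

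Each of these Sdc1 calls in the fit without the slide was lost when some single arrays were left out. Without either unstimulated array the adjusted p was 0.112 or 0.13 with anti-CD40 and 0.101 or 0.121 with anti-CD40 with Pam2CSK4. Without the second anti-CD40 array it was 0.112, and without either array of anti-CD40 with Pam2CSK4 0.0742 or 0.134. The comparison with TLR2.CD86 lost its call without the first TLR2.CD86 array (-0.56, adjusted p = 0.152), without either array of anti-CD40 with Pam2CSK4 (adjusted p = 0.138 and 0.235) and without moderation (adjusted p = 0.0783). It was also lost without any single array of the unstimulated, Pam2CSK4 or anti-CD86 groups (adjusted p = 0.0847, 0.0576 and 0.0649). The summed plasma cell markers, which include Sdc1 itself and Igj, saturated on all 12 arrays, were 192 to 214 on the unstimulated arrays, 189 to 219 with anti-CD40 and 250 to 258 with anti-CD40 with Pam2CSK4. Igj makes up nearly all of each sum, and a saturated signal cannot show a rise in RNA. These sums therefore do not show whether plasma cell RNA changed. The signals most similar to Sdc1 were those of BC017643 (r = 0.996), Pik3cg (r = 0.990) and Bptf (r = 0.989).

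The genes around these regulators were described from 4 lists, chosen with earlier results of these data known. The comparisons share the unstimulated arrays. None of the listed genes was called by limma with Pam2CSK4 or with anti-CD86 alone, beside 0.136% and 2.14% of all tested probes. At an unadjusted p under 0.05 there were 2 B cell identity genes, 3 partner factors, 4 secretory and plasma cell genes and 6 germinal centre and switch genes with Pam2CSK4, and 1, 4, 7 and 5 with anti-CD86. With slide as a block and Pam2CSK4, beside 10.8% of probes, 6 B cell identity genes were called higher and none lower, 3 partner factors higher and 3 lower, no secretory and plasma cell gene higher and 4 lower, and 3 germinal centre and switch genes higher and 1 lower. With the block and anti-CD86, beside 28.3% of probes, these counts were 6 higher and 1 lower, 2 higher and 3 lower, none higher and 9 lower, and 1 higher and 4 lower. In the list of 18 B cell identity genes, none was called with TLR2.CD86. There, 2 were higher and 3 lower with anti-CD40, and 3 were higher and 1 lower with anti-CD40 with Pam2CSK4. Of all tested probes, 10.6%, 16.7% and 18.2% were called in these 3 comparisons. Cxcr5, the follicle homing receptor, and Fcer2a, which encodes CD23, rose in both anti-CD40 groups. Cxcr5 went from a mean of 6.32 to 7.41 and 7.82, and Fcer2a from 2.27 to 3.48 and 3.76. Btk, the kinase downstream of the B cell receptor, fell by 1.37 with anti-CD40 and by 0.80 with anti-CD40 with Pam2CSK4. The medians of the list were 0.14, -0.08 and 0.10 in these 3 comparisons, beside -0.03, -0.01 and 0.01 over all tested probes. The slide block, under which 34.9%, 37.1% and 47.4% of all probes were called in these 3 comparisons, brought the list to 10 higher and 3 lower with TLR2.CD86, where 5 had an unadjusted p under 0.05 without it, 5 higher and 7 lower with anti-CD40, and 8 higher and 5 lower with anti-CD40 with Pam2CSK4. Those 8 include Cd79b and Blnk, whose probes were saturated on all 12 arrays. A saturated signal cannot show a rise in RNA.

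Among 20 partner factors, which act with the members in B cells, 1 was higher and 4 lower with TLR2.CD86, none higher and 7 lower with anti-CD40, and 2 higher and 5 lower with anti-CD40 with Pam2CSK4. Of all tested probes, 10.6%, 16.7% and 18.2% were called in these 3 comparisons. The medians of the list were -0.21, -0.26 and -0.21, beside -0.03, -0.01 and 0.01 over all tested probes. With the slide block the counts were 3 higher and 7 lower, 1 higher and 9 lower, and 4 higher and 10 lower. Among those 4 was Klf2, saturated on all 12 arrays. Ets1, whose product restrains plasma cell differentiation, fell in all 3, by 0.56 (adjusted p = 0.0492), 1.03 (adjusted p = 0.00593) and 0.97 (adjusted p = 0.004). Id3, an inhibitor of E proteins, fell by 0.98 with anti-CD40 and by 1.15 with anti-CD40 with Pam2CSK4. Ikzf3, which encodes Aiolos, rose by 0.49 with TLR2.CD86, and Irf8, a relative of Irf4, rose by 0.75 with anti-CD40 with Pam2CSK4.

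Of 21 secretory and plasma cell genes on the array, none was higher and 7 were lower with TLR2.CD86, none higher and 3 lower with anti-CD40, and 2 higher and 2 lower with anti-CD40 with Pam2CSK4. Of all tested probes, 10.6%, 16.7% and 18.2% were called in these 3 comparisons. The medians of the list were -0.50, -0.39 and -0.10, beside -0.03, -0.01 and 0.01 over all tested probes. Blocked by slide the counts were 1 higher and 12 lower, 2 higher and 11 lower, and 4 higher and 8 lower. Those 4 include Igj, saturated on all 12 arrays. With TLR2.CD86, Pdia4, a chaperone of the endoplasmic reticulum, fell by 1.12 (adjusted p = 0.025), and Tnfrsf17, which encodes BCMA, by 1.04 (adjusted p = 0.0257). Hsp90b1, another such chaperone, fell by 0.68, and Sec61a1, of the translocation channel, by 0.52. With anti-CD40 with Pam2CSK4, Slamf7 rose by 0.75 and Tnfrsf13b, which encodes TACI, by 0.76.

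In the list of 15 germinal centre and class switch genes, 1 was higher and 1 lower with TLR2.CD86, 3 higher and 1 lower with anti-CD40, and 4 higher and 1 lower with anti-CD40 with Pam2CSK4. Of all tested probes, 10.6%, 16.7% and 18.2% were called in these 3 comparisons. With slide as a block there were 4 higher and 5 lower with TLR2.CD86, and 5 higher and 5 lower with each anti-CD40 group. The block called 34.9%, 37.1% and 47.4% of all probes. Cd83, a gene of this list, was saturated on all 12 arrays. Batf, an AP-1 factor that partners IRF4, rose by 0.56 (adjusted p = 0.0429), 1.45 (adjusted p = 0.00153) and 2.08 (adjusted p = 0.000117). Pam2CSK4 alone gave a Batf difference of 0.74 (limma adjusted p = 0.102) and a Myc difference of 0.83 (adjusted p = 0.126), neither called. Under the slide block both were called, at 0.83 (adjusted p = 0.00776) and 0.98 (adjusted p = 0.00287). Myc rose by 1.60 and 2.29 in the anti-CD40 groups. Msh6, a mismatch repair gene, fell by 0.70 and 0.85 in the same groups, and Ung, the uracil glycosylase of switching, fell by 0.58 with TLR2.CD86. The plot of the 4 lists sets these genes beside those not called. With median scaling, 2 genes of this list and 1 B cell identity gene were the only genes of the 4 lists still called against unstimulated cells.

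**Figure D4:**
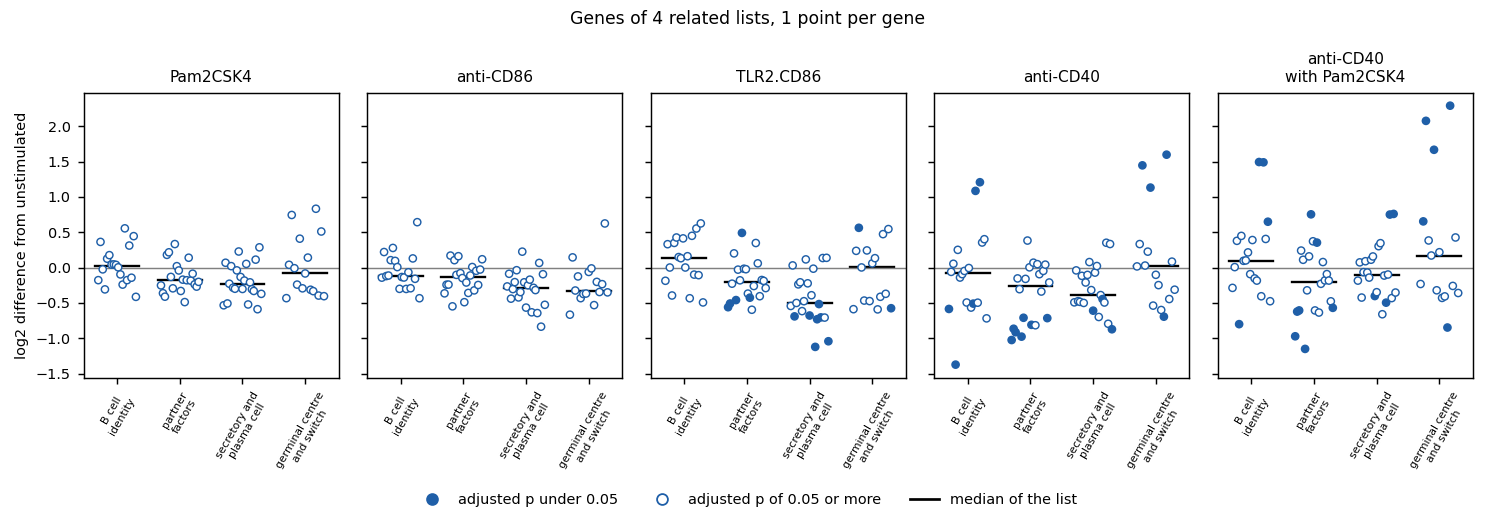
Log2 difference from unstimulated cells (y axis) of each gene of 4 lists (x axis) in the 5 stimulated groups, 1 point per gene at its brightest probe, filled where the adjusted p is under 0.05, with a line at the median of each list. The fit is that without the slide. No point is filled with Pam2CSK4 or anti-CD86, the filled secretory and plasma cell genes with TLR2.CD86 are all below 0, and the highest points, Batf and Myc among them, are with the anti-CD40 groups.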

How the data were processed

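Total RNA of RB cells was labelled with Cy3 and hybridised to 12 Agilent arrays, 2 for each of 6 groups. The authors deposited scanner files made with Feature Extraction 10.5.1.1, which hold an intensity per spot corrected for background within the array and not normalized between arrays. The authors' deposited value table, one log2 column per array, was checked against these files, and each column equalled the log2 processed intensity minus a constant close to that array's 75th percentile. The direction and scale of that table follow from this match, and it served as an alternative. Per the file headers the array design refers to mm9, so no coordinate was taken from the RefSeq tables for a probe.

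Control and outlier spots were left out, spots of a probe averaged, and log2 processed signal taken minus the array's 75th percentile. Of 61307 probes, 31667 passed the filter (above background, by the scanner's flag, on each array of 1 or more groups), and the 31599 with no gap in their values entered limma 3.58.1 in R 4.3.3 (1 coefficient per group, 12 arrays, empirical Bayes, Benjamini-Hochberg). The script was tested on simulated data with independent noise and no slide effect, so that test does not cover the difference between slides. The 10 comparisons were each of 5 stimulations with unstimulated cells and 5 pairs of stimulations. A gene with several probes was read from its brightest. For members called against unstimulated cells, the 3 genes of highest Pearson r were named, and of each list the 2 highest and 2 lowest called genes per comparison. Members, lists and tests were chosen with earlier results of these data known. Alternatives were median, quantile and normexp (offset 50) processing, the deposited table, other filters, slide or replicate number as a block, slide 1 alone, no moderation and leaving out each array. RefSeq promoters are of GRCm38.p6. Values of some single marker genes are not reported here.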

Additional observations from a re-analysis of the deposited data

How the results depend on the processing

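Of 22 alternatives to the reported fit, counts of members called moved most with slide as a block, to 4 (Pam2CSK4), 3 (anti-CD86), 6 (TLR2.CD86) and 7 (anti-CD40) against unstimulated cells, 1 for TLR2.CD86 against Pam2CSK4, 3 for TLR2.CD86 against anti-CD86, and 2, 5 and 5 for anti-CD40 with Pam2CSK4 against anti-CD40, Pam2CSK4 and TLR2.CD86. With median normalization the counts were 0 for Pam2CSK4, TLR2.CD86 and anti-CD40 against unstimulated cells, for TLR2.CD86 against anti-CD86 and for anti-CD40 with Pam2CSK4 against Pam2CSK4 or TLR2.CD86, and 1 for that last group against unstimulated cells. With no filter on dim probes they were 0 for Pam2CSK4 and TLR2.CD86 against unstimulated cells and TLR2.CD86 against anti-CD86, and 1 for either anti-CD40 group against unstimulated cells and for the one with Pam2CSK4 against TLR2.CD86. For TLR2.CD86 against unstimulated cells the count was 2 with quantile normalization, 3 with normexp, 2 with probes above background on all arrays and 4 on slide 1 alone. For anti-CD40 with Pam2CSK4 against Pam2CSK4 it was 2 with quantile normalization, 3 with normexp and 4 on slide 1 alone. On slide 1 alone it was 0 for Pam2CSK4 against unstimulated cells and for TLR2.CD86 against anti-CD86 and 4 for anti-CD40 with Pam2CSK4 against TLR2.CD86, where no moderation gave 1. TLR2.CD86 against anti-CD86 gave 0 with quantile normalization. Apart from the slide block, the share of all probes called under each alternative is not given here. Counts of members under those alternatives, including arrays left out and the replicate block, therefore cannot be read as particular to the members. The causes were not tested.

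With each array left out, members called ranged from 0 to 1 for Pam2CSK4 and TLR2.CD86 against unstimulated cells and TLR2.CD86 against anti-CD86, 1 to 3 for anti-CD40, 1 to 5 for anti-CD40 with Pam2CSK4, and 1 to 2 for the latter against TLR2.CD86. A group left with 1 array is assumed to vary like the others.

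Differences that changed sign were all uncalled in the reported fit. Against unstimulated cells with Pam2CSK4, Pax5 was 0.055 with the slide block and 0.0034 on slide 1, and Prdm1 0.031 and 0.045. With anti-CD86, median normalization gave Pax5 -0.10 and Bach2 -0.12, Ebf1 was 0.077 with quantile normalization and 0.076 with normexp, and Xbp1 was 0.11 with quantile normalization, 0.14 with the block and 0.11 on slide 1. With TLR2.CD86, Pax5 was -0.10 with median normalization and Sdc1 0.068 with the block and 0.16 on slide 1. With median normalization Bcl6 was -0.50 with anti-CD40 and -0.045 with anti-CD40 with Pam2CSK4. With each array left out, Pam2CSK4 gave -0.33 to 0.0034 (Pax5) and -0.10 to 0.045 (Prdm1). Anti-CD86 gave -0.14 to 0.22 (Pax5), -0.049 to 0.019 (Ebf1), -0.11 to 0.14 (Bach2) and -0.13 to 0.11 (Xbp1). TLR2.CD86 gave -0.051 to 0.42 (Pax5) and -0.40 to 0.16 (Sdc1). Bcl6 was -0.17 to 0.30 with anti-CD40 and -0.030 to 0.16 with anti-CD40 with Pam2CSK4, where Prdm1 was -0.22 to 0.051.

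Replicate number was also tried as a block. Same-numbered arrays deviated together (r from 0.54 to 0.67) among the 4 groups split over both slides and not in other pairs of groups (r from -0.11 to 0.07), so the number was not taken to pair the samples. With the replicate block the count was 3 for TLR2.CD86 against unstimulated cells and 3 for anti-CD40 with Pam2CSK4 against Pam2CSK4. Each member has 1 probe, so the median over probes was not run.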

Other observations

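The combined anti-CD40 groups allow a comparison made after the values were seen. For Irf4, the log2 difference with anti-CD40 and Pam2CSK4 together was below the sum of the single differences by -0.82 (SE 0.15, limma adjusted p = 0.0536), and with slide as a block by -0.71 (adjusted p = 0.00668), while 1.15% and 8.41% of all tested probes were called. For anti-CD86 and Pam2CSK4 together it was -0.17 from the sum (adjusted p = 0.969), in an interaction in which 0.019% of probes were called, or 0.234% with the block. A sum of log2 differences corresponds to multiplied folds. None of the other 8 members was called in either interaction, with or without the block.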
